A study of Mus musculus with 28 samples.

Results

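Distal 3′UTR regions are stretches of m6A signal that lie in the 3′ untranslated region (3′UTR) of a transcript, away from the stop codon. Peaks from the 14 m6A immunoprecipitation (IP) libraries were joined into 1 region wherever they shared 1 bp or more of a strand. A region was kept where its midpoint lay in a 3′UTR on its own strand and more than 200 nt along the genome from every stop codon of that strand. Of 33937 merged regions, 5684 (16.7%) met this rule, in the 3′UTRs of 4031 genes. A further 5957 regions had their midpoint within 200 nt of a stop codon, and 8157 lay elsewhere in coding sequence. The rule used position alone and no measured level.

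The libraries came from untreated F1 hybrids between mouse strain C57BL/6J, called C57, and mouse strain PWK/PhJ, called PWK. In F1i animals the mother was PWK and the father C57, and in F1r animals the reverse. There were 2 IP libraries of newborn (P0) cerebellum, 4 of cerebellum at postnatal day 7 (P7), 4 of P0 cerebrum and 4 of P7 cerebrum. Each F1i library had an F1r counterpart of the same tissue, age and labelled sex, which gave 7 pairs. Both P0 cerebellum libraries are labelled male, and the other groups hold both labelled sexes. By the labels, the libraries of a group differ from each other in sex, cross or both, so they came from different animals. The labels do not say how many animals went into a library, or whether cerebrum and cerebellum came from the same animals. The tissue tests treat the libraries as independent. The p-values measure the spread between these libraries, which may be partly technical.

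N6-methyladenosine (m6A) is placed on nascent transcripts by a complex built around METTL3 and METTL14 at the DRACH consensus, in which the methylated A stands before a C. It is densest around stop codons and in 3′UTRs, where proteins of the YTH family read it and take part in decay, translation and localization of the transcript. The 3′UTR also holds the binding sites of microRNAs and RNA-binding proteins, and many neuronal 3′UTRs are long, with elements that steer mRNA to neurites and synapses.

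The sequence under a distal region is shown for members on which the results turn. Each line gives 29 nt of the C57 reference (RefSeq, GRCm38.p6, the assembly called mm10), 5′ to 3′ on the transcript strand, centred on the A of the GGAC nearest to the summit of the region's strongest peak. Capitals mark GGAC, which matches DRACH where A, C or T follows it. Of 137 regions chosen by the naming rule, 71 held such a GGAC with the A no more than 25 nt from the summit. The first lines are the strongest members of the whole set, all called in every library.
Mapt (chr11:104330269-104330297, plus strand): cttctgcatctgGGACctcacagacactg
Spop (chr11:95491993-95492021, plus strand): aataacttagggGGACtgggggagggaag
Rhob (chr12:8498421-8498449, minus strand): caagcatgaactGGACttggccatctttc
Ank2 (chr3:126923679-126923707, minus strand): gcctaattactgGGACccagtgacacttc
Pip5k1c (chr10:81318828-81318856, plus strand): gctggcttccaaGGACtgcagcagccatg

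The next sites belong to members called in every library of one tissue and in none of the other, first those of cerebrum (Mapt to Gabrb1) and then those of cerebellum (Mtap to Slc6a2). In Pax2 and Slc6a2 a G follows GGAC, so these matches are not DRACH.
Mapt, upstream region (chr11:104329158-104329186, plus strand): attacagacctgGGACtttagggctaacc
Slc8a1 (chr17:81374966-81374994, minus strand): aaacatgtgcatGGACtatgtttgtgatt
Egr3 (chr14:70080209-70080237, plus strand): gagccacgccaaGGACctacgggggactg
Gabrb1 (chr5:72140163-72140191, plus strand): cctaagaaaaatGGACtttcctttaagaa
Mtap (chr4:89180080-89180108, plus strand): aaaaattaaaatGGACttagagaactttg
Pax2 (chr19:44836557-44836585, plus strand): acggtggcactgGGACgcaagggtcggac
Slc6a2 (chr8:92997886-92997914, plus strand): aaggaggaagtgGGACgtgaattctggaa

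The last sites belong to members called at 1 age only in cerebrum (Sox4, Sox11 and Slc38a1 at P0, Gpr37l1 at P7) and to members whose enrichment differed most between the ages there (Slc22a3, Sytl2 and Cemip higher at P7, Celsr1 and Lrrc75b lower).
Sox4 (chr13:28950357-28950385, minus strand): caaatctgtgctGGACttttgaaaaacca
Sox11 (chr12:27335024-27335052, minus strand): agcatccaaccaGGACccacagcttgggc
Slc38a1 (chr15:96615019-96615047, minus strand): cctaaacctatgGGACataatgaaagcag
Gpr37l1 (chr1:135160444-135160472, minus strand): gcctcctatactGGACtagggacttctag
Slc22a3 (chr17:12420471-12420499, minus strand): taatgaggaactGGACtttttctttcttt
Sytl2 (chr7:90409953-90409981, plus strand): tggagagagaaaGGACagcggtgaagaca
Cemip (chr7:83935072-83935100, minus strand): gctggcacactgGGACagggactaggtgg
Celsr1 (chr15:85899293-85899321, minus strand): cagaagtgcacaGGACtgctagtgactga
Lrrc75b (chr10:75552187-75552215, minus strand): gagaagagcccaGGACctagggctctgct

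On the transcript strand, GGAC lay no more than 25 nt from the summit, measured to its A, in 2548 of the 5684 members (44.8%, 95% Wilson interval 43.5% to 46.1%), against 44.5% of all 33937 regions. These intervals cover counting error only, since regions share libraries and transcripts. Windows of the same length shifted by 300 nt to both sides of the members' summits held GGAC in 15.5% of cases. The share was 48.9% (47.7% to 50.2%) near stop codons and 47.6% (46.5% to 48.7%) in other coding regions. A DRACH of any form, GGAC followed by A, C or T included, lay within 25 nt of 94.2% of the members' summits and of 90.6% of all regions' summits. The form nearest to the members' summits was GGACT in 742 cases (13.9% of those with a DRACH), AGACT in 647 (12.1%), GGACA in 565 (10.5%) and GAACT in 555 (10.4%). Where GGAC was present, its A lay a median of 7.0 nt from the summit.

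**Figure D1:**
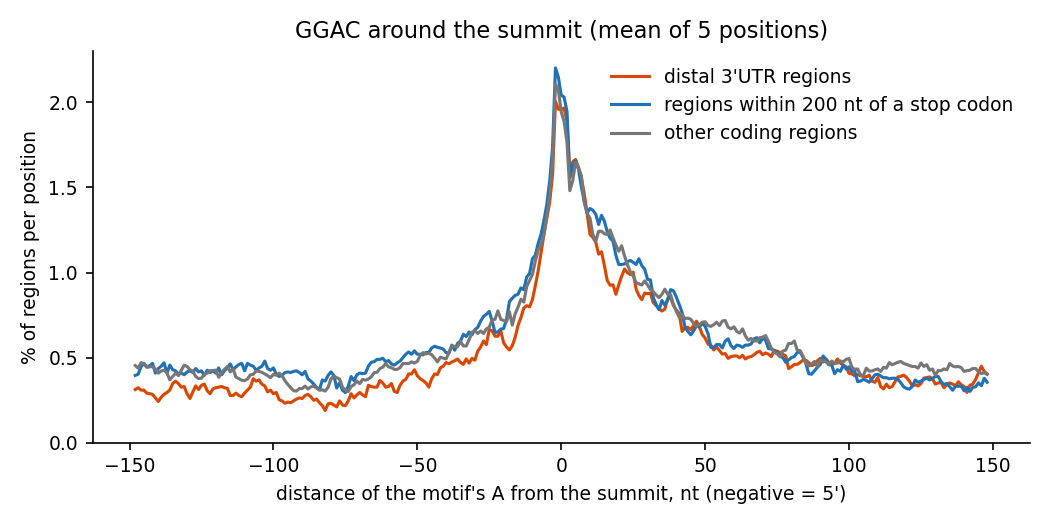
Percentage of regions (y axis, per position, mean of 5 neighbouring positions) whose GGAC has its A at a given distance from the summit (x axis, nt, negative is 5′), for distal 3′UTR regions, regions within 200 nt of a stop codon and other coding regions. All 3 curves peak close to the summit, slightly 5′ of it. Before averaging, the A itself fell at the summit in 3.47% of the distal regions.

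Members called more often carried the motif more often. GGAC was present at 52.1% (50% to 54.2%) of the members called in all 14 libraries, at 41.0% (39.2% to 42.8%) of those in 2 to 13 and at 38.5% (35.0% to 42.2%) of those in 1. The polyadenylation signal AATAAA, sought on the transcript strand in 201 nt around the summit, was present at 8.57% of the members and 7.42% of all regions. TGTANATA, the motif of Pumilio proteins, was present at 1.78% of the members and 1.11% of all regions, with 1.88% near stop codons and 0.637% in other coding regions. The median GC content of these windows was 48.8% in the members, 51.2% near stop codons and 53.2% in other coding regions. A match of letters describes the window and is not a measured site.

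Members lay throughout the 3′UTR, most often in its first part. The nearest stop codon lay a median of 762 nt from the midpoint, with quartiles at 377 and 1623 nt, in 3′UTRs with a median length of 2373 nt. With the spliced 3′UTR cut into 4 equal parts, 30.5% of the members fell in the part next to the stop codon, 28.8% and 22.5% in the middle parts and 18.2% in the last, and 280 (4.93%) fell in the final 200 nt. The 3′UTR had an intron for 388 members (6.83%), for which distance along the genome exceeds distance along the mRNA. The midpoint of 126 members was also coding sequence of another annotated transcript, and 25 members lay in the 3′UTRs of several genes.

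A midpoint beyond 200 nt does not make a whole region distal. The members had a median width of 260 nt (80 to 2563 nt), against 216 nt for all regions, and 1522 of them (26.8%) reached with an edge to within 200 nt of a stop codon. These had a median width of 618.5 nt, and 1056 of them (69.4%) were called in all libraries. The other 4162 lay wholly beyond 200 nt with a median width of 206 nt, and 1053 of them (25.3%) were called in all libraries. At the limit itself, the 215 members with midpoints 201 to 220 nt away were called in all libraries in 56.3% of cases at a median strength percentile of 48.88. The 238 regions of 3′UTRs just inside, at 181 to 200 nt, were called in all libraries in 52.5% of cases at a median of 46.04.

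**Figure D2:**
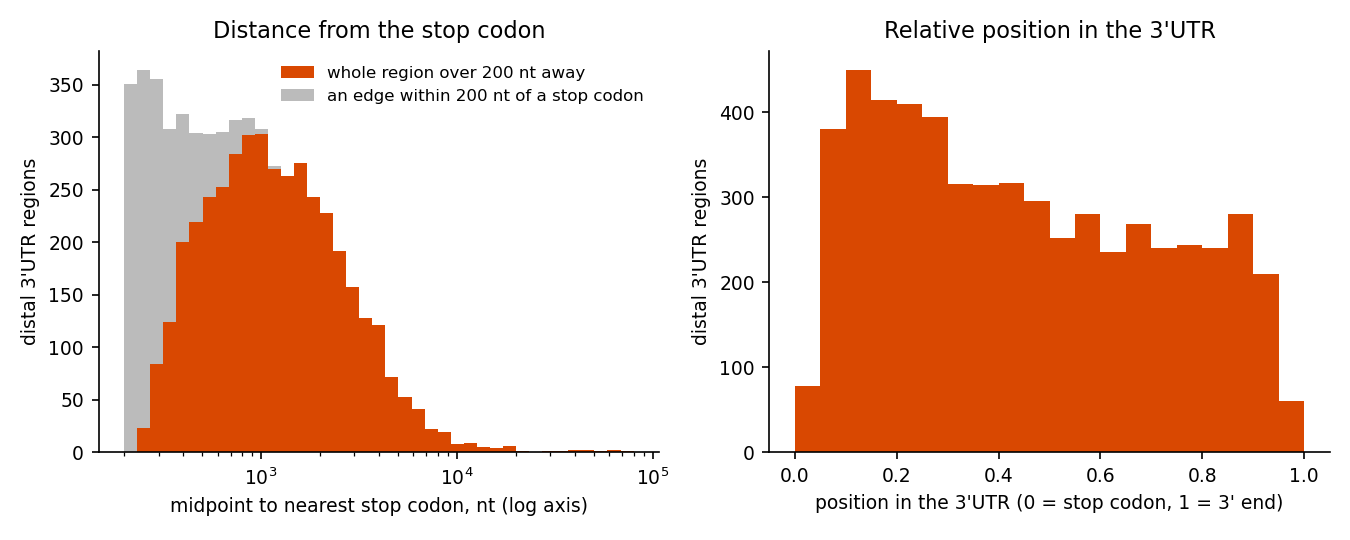
Left, distal 3′UTR regions by the distance from midpoint to nearest stop codon (x axis, nt, log axis), stacked by whether an edge lay within 200 nt of a stop codon. Right, the same regions by relative position in the spliced 3′UTR (x axis, 0 at the stop codon, 1 at the 3′ end). The 1522 members with an edge near a stop codon fill the shortest distances, and the early part of the 3′UTR holds more members than the late part.

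Most genes had 1 member. Of the genes with a single symbol, 2832 had 1 member, 818 had 2, 236 had 3 and 107 had 4 or more. Gabrb1, a subunit of the GABA-A receptor, had 8 members between 342 and 11815 nt in a 3′UTR of 12228 nt, and 1 of them was called in all libraries. Banp, which encodes a DNA-binding nuclear matrix protein, also had 8, between 323 and 3385 nt, with 0 in all libraries. Sned1, St6galnac3 and Zbtb40 had 7 each. Ntrk3, the receptor of neurotrophin-3, had 6 members that lay between 822 and 15027 nt in a 3′UTR of 16600 nt, and 2 were called everywhere. A separate region near the stop codon was present in 1654 genes with a distal member, while 1013 genes had members and no region at all that came within 200 nt of a stop codon. Of the latter, 285 genes had a distal region in every library.

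Some features of the libraries touch the comparisons. Lists held 13768 to 24038 regions, and relative depth, taken from the background level behind the peak values, ran from 0.56 to 1.558 and was 1.24 ± 0.264 (SD, n = 4) in P0 cerebrum and 0.914 ± 0.108 (SD, n = 4) in P7 cerebrum. In the study's sample sheet the batch follows the tissue, cerebellum in 1 and cerebrum in another, and the 2 factors cannot be told apart. Emx1, a marker of cerebrum, had a region in 8 of 8 cerebrum and 0 of 6 cerebellum libraries, and En2, of cerebellum, in 0 and 6, while Zic1, Zic4 and Cbln1 had one in every library of both tissues and Pcp2 in none. The library labelled P7 cerebrum male F1r had 7 peaks in Xist and 0 in 4 Y-linked genes, and its counterpart labelled female had 3 and 1; sex is used here only to match pairs.

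Cerebrum libraries held more distal regions than cerebellum libraries, and P0 cerebrum held the most. The numbers were 3156 and 3259 in P0 cerebellum, 3261, 3119, 3120 and 2810 in P7 cerebellum, 4223, 3980, 4302 and 4252 in P0 cerebrum, and 3404, 3628, 3367 and 3647 in P7 cerebrum. No library of cerebrum overlapped those of cerebellum, nor P7 cerebrum those of P0. Cerebrum exceeded cerebellum by 729.5 regions (two-sided exact permutation test, p = 0.001998, Benjamini-Hochberg adjusted p = 0.01099 over 11 tests). At P7 alone the difference was 434 (exact permutation test, p = 0.02857, the smallest that 4 against 4 can give, adjusted p = 0.05238). In cerebrum the P7 minus P0 difference was -677.8 (exact permutation test, p = 0.02857, adjusted p = 0.05238). With each list reduced to its strongest peaks at one common length, the tissue difference was 125.6 (exact permutation test, p = 0.04595) and the age difference -60.0 (exact permutation test, p = 0.3429). The P7 minus P0 difference in cerebellum was -130.0 (exact permutation test, p = 0.4, where 2 against 4 can give 0.06667 at the least). The F1r minus F1i difference was -19.71 regions over 7 pairs (exact sign flips, p = 0.8281).

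The share of distal regions depended on what it was set against. Of all regions of a library they made up 20.6% ± 0.665 (SD, n = 2) in P0 cerebellum, 20.6% ± 1.1 (n = 4) in P7 cerebellum, 18.6% ± 0.729 (n = 4) in P0 cerebrum and 20.3% ± 0.222 (n = 4) in P7 cerebrum. P7 cerebrum lay 1.702 percentage points above P0 cerebrum without overlap (exact permutation test, p = 0.02857, adjusted p = 0.05238). Of distal, stop codon and coding regions alone, the distal ones made up 27.7% ± 0.27 (SD, n = 4) in P0 cerebrum and 26.3% ± 0.252 (SD, n = 4) in P7 cerebrum, a difference of -1.398 points in the other direction (exact permutation test, p = 0.02857, adjusted p = 0.05238). For each stop codon region there were 0.907 ± 0.00539 distal regions in P0 cerebrum, 0.814 ± 0.00748 in P7 cerebrum, 0.819 ± 0.00389 in P0 cerebellum and 0.762 ± 0.022 in P7 cerebellum (SD, n = 4, 4, 2 and 4). Counting only members wholly beyond 200 nt, the age difference in the share of all regions was 0.1461 points (exact permutation test, p = 0.5714). The tissue difference in that share was -1.129 points (exact permutation test, p = 0.05794) and the F1r minus F1i difference -0.4294 points (exact sign flips over 7 pairs, p = 0.2969), neither past the threshold. Without the P0 cerebrum female pair the cross difference was -0.7548 points (exact sign flips over 6 pairs, p = 0.03125, the smallest they can give), and without the P7 cerebellum male F1r, P7 cerebrum male F1i, female F1i or female F1r library the tissue difference ran from -1.24 to -1.292 (exact permutation tests, p = 0.03846 to 0.04953), all unadjusted.

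**Figure D3:**
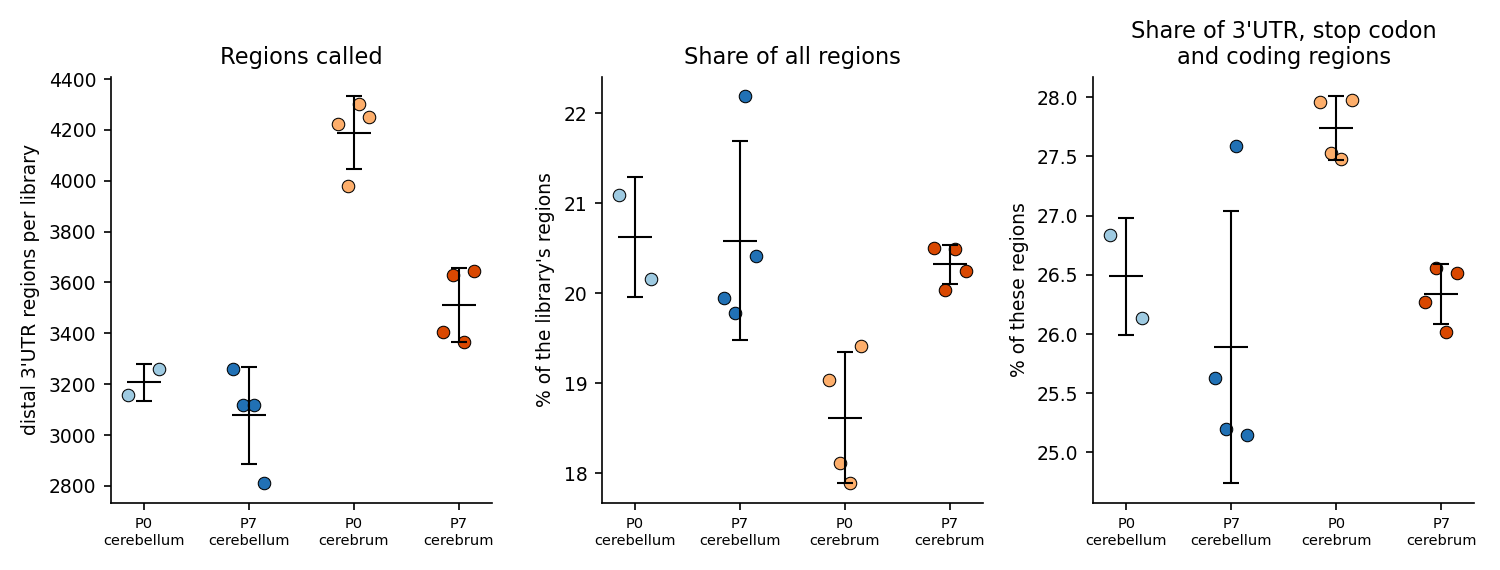
Distal 3′UTR regions per library (left), their percentage of all regions of the library (middle) and of distal, stop codon and coding regions alone (right), by group. Circles are libraries, bars give the mean ± SD, and the y axes do not start at 0. The 4 P0 cerebrum libraries are highest on the left, between 3980 and 4302, and lowest in the middle, between 17.9% and 19.4%.

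Inside a list, distal peaks ranked below stop codon peaks, by an amount that depended on which members were counted. Each peak was given its percentile of −log10 q in its own list, 100 being the strongest. The median percentile of the members was 56.3 to 61.0 over libraries, and it lay below that of stop codon regions in all libraries but P7 cerebellum female F1i, where the medians were 61.022 and 61.016. The mean difference was -2.707 points (exact sign flips over 14 libraries, p = 0.0002441, adjusted p = 0.002686). Over the 6 cerebellum libraries it averaged -1.376 ± 1.03 (SD, n = 6), and over the 8 of cerebrum -3.705 ± 0.828 (SD, n = 8), a contrast that was not tested. Where a library counted as having a region only if its peaks covered most of it, by length, the difference was -0.6571 (exact sign flips over 14 libraries, p = 0.3433). With lists of one common length it was -0.9659 (exact sign flips, p = 0.0008545). For members wholly beyond 200 nt it was -13.36 and for members over 400 nt from stop codons -9.428 (exact sign flips, p = 0.0001221 for each). With the summit in place of the midpoint it was -6.051. A region takes the percentile of its strongest peak. Members wholly beyond 200 nt had a median width of 206 nt, against 281 nt for stop codon regions. The part of width in these differences was not tested.

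Members were also called in fewer libraries than regions near stop codons. All 14 libraries called 2109 members (37.1%) and 1 library called 703 (12.4%), against 47.5% and 7.65% of the stop codon regions, 39.6% and 9.44% of the other coding regions and 27.2% and 18.1% of all regions. The share called everywhere was 48.8% of the 1999 members up to 500 nt from a stop codon, 33.9% of the 1393 up to 1000 nt, 29.2% of the 1216 up to 2000 nt, 26.7% of the 767 up to 4000 nt and 32.7% of the 309 beyond. In the nearest of these bins 67.5% of the members reached to within 200 nt of a stop codon.

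**Figure D4:**
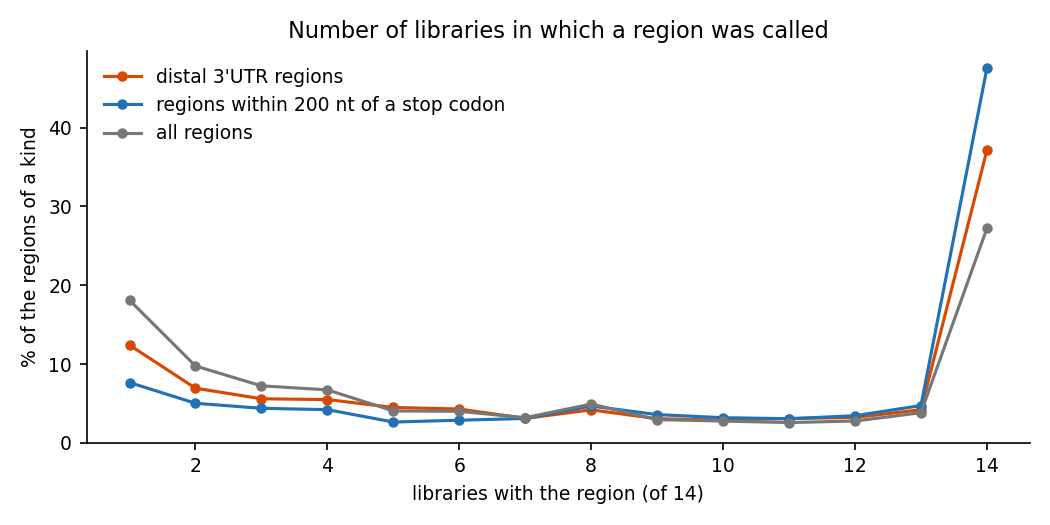
Number of libraries in which a region was called (x axis, of 14) against the percentage of regions of its kind (y axis), for distal 3′UTR regions, regions within 200 nt of a stop codon and all regions. At both ends the distal regions lie between the other curves, with 12.4% in 1 library and 37.1% in all.

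The strongest member of all, by mean percentile (99.98), lay 2258 nt downstream of the stop codon of Mapt, which encodes the microtubule protein tau, at chr11:104330043-104330848. Its fold enrichment, the authors' ratio of IP pileup to local background at the summit, was 24.0 and 25.3 in P0 cerebellum, 26.7, 27.0, 44.0 and 36.2 in P7 cerebellum, 83.2, 98.1, 76.2 and 71.9 in P0 cerebrum, and 93.7, 89.7, 89.1 and 94.5 in P7 cerebrum. Every cerebrum value lay above every cerebellum value. Whole lists differed in the same direction, the median fold of all regions being 11.2 ± 0.654 (SD, n = 8) for cerebrum and 8.92 ± 0.664 (SD, n = 6) for cerebellum, so fold is compared below only after the median of each library was subtracted on the log2 scale. Next in strength came Spop, a ubiquitin ligase adaptor (99.95), the small GTPase Rhob (99.9), the membrane adaptor ankyrin Ank2 (99.89), the ubiquitin ligase Rnf157 (99.83) and Pip5k1c, a phosphoinositide kinase that works at synapses (99.78). The Mapt and Rhob regions lay wholly beyond 200 nt, and the others reached towards the stop codon with an edge.

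Presence by tissue was tested for the 3575 members called in some but not all libraries. Of these, 283 (7.92%) were called more often in cerebrum and 74 (2.07%) in cerebellum at an adjusted p under 0.05 (Fisher's exact test, two-sided, Benjamini-Hochberg over 24722 regions). Over all regions tested the percentages were 7.78 and 1.87, close to those of the members. All-or-none presence, 8 of 8 against 0 of 6 or the reverse, held for 128 and 35 members, each with an adjusted p of 0.0066 in Fisher's exact test. These are 3.58% and 0.979% of the members tested, against 4.09 and 0.955 percent of all regions tested. With lists of one common length the counts were 157 and 120, a more even split. Leaving out any 1 of the 6 cerebellum libraries left 132 to 153 and 35 to 45 members past the threshold. At P7 alone, with 4 libraries against 4, Fisher's exact test gave 0 calls, its smallest p being 0.02857 before adjustment.

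Among the all-or-none members of cerebrum, the highest percentile (79.22) belonged to another Mapt region, 973 nt from the stop codon. Its folds were 4.32, 4.43, 4.82 and 4.98 at P0 and 4.36, 4.34, 4.58 and 4.87 at P7, and no cerebellum library had a peak there although all of them had the stronger Mapt region further downstream. Mmp16, a membrane metalloproteinase, had a region near the end of its 3′UTR, 2829 of 2924 nt from the stop codon, with folds of 18.8, 18.4, 15.9 and 21.3 at P0 and 16.7, 17.0, 15.9 and 17.4 at P7. The region of Slc8a1, a sodium-calcium exchanger, lay 11019 nt from the stop codon in a 3′UTR of 15586 nt, with folds between 10.1 and 14.1. Egr3, an activity-induced transcription factor, had 19.5, 12.5, 15.8 and 19 at P0 and 26.4, 26.2, 25.0 and 29.8 at P7, in a region whose edge reached near the stop codon. Hdgfl3, a growth factor related to HDGF, and the hydrolase Abhd2 completed the 6 strongest.

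Of the all-or-none members of cerebellum, those of Pax2 and En2 belong to transcription factors of the mid-hindbrain. The Pax2 region gave 7.78 and 45.7 at P0 and 49.2, 42.9, 13.9 and 42.6 at P7, so its F1i male P0 and F1i female P7 libraries were far below the rest. The En2 region gave 10.3 and 11.5 at P0 and 10.6, 12.6, 10.3 and 14.2 at P7, an even level. Mtap, an enzyme of methionine salvage, gave 15.4 and 17.8 at P0 and 23.9, 24.5, 34.7 and 30.8 at P7. Slc6a2, the noradrenaline transporter, ranged from 9.67 to 23.9, and Leng8 from 5.22 to 8.7.

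A region can be missing because the transcript is low. In bulk tissue, fewer cells of a type and less RNA per cell cannot be told apart, and the input libraries that hold transcript levels were not analysed here. As a measure within the lists, 164 of the 283 members higher in cerebrum and 39 of the 74 higher in cerebellum belong to a gene with another exonic region in all 14 libraries, as do 55.4% of all members. Of the all-or-none members, 38 in 36 genes on the cerebrum side and 6 in 6 genes on the cerebellum side have a stop codon region of the gene in every library. On the cerebrum side these included Slc8a1, the kinase Dyrk1a (folds 9.39 to 18.5), Gabrb1 3347 nt from the stop codon (12 to 24.5), the endosomal adaptor Rabep1, the exchange factor Arhgef7 and the septin Sept3. On the cerebellum side they were Mtap, Crtac1, Taf2, Ip6k1, Prkrip1 and Zfp618. Across all called members, 11 on the cerebrum side and 2 on the cerebellum side had a stop codon region of the gene that was called the same way.

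The motif content of the tissue sets was not alike. GGAC stood within 25 nt of the summit in 31.8% (Wilson interval 26.7% to 37.4%) of the members higher in cerebrum and in 63.5% (52.1% to 73.6%) of those higher in cerebellum, against 44.8% of all members. DRACH of any form was present in 94.3% and 93.2%. Median GC content around the summits was 43.8% and 49.8%, and the part of base composition in the difference was not tested. The median percentile was similar, 37.42 and 39.82.

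Presence by age in cerebrum was described by exclusive members, those with calls in 4 of 4 libraries at an age and 0 of 4 at the other, with no test per region. Of 5208 members called in cerebrum, 172 (3.3%) were exclusive to P0 and 29 (0.557%) to P7. Over all 30237 regions called in cerebrum the percentages were 4.79 and 0.496. With lists of one common length the counts were 77 and 60. Every P0 list was longer than every P7 list. Relative depth ran from 0.986 to 1.558 at P0 and from 0.796 to 1.031 at P7, so single libraries overlapped. Another exonic region of the gene was called in all 8 cerebrum libraries for 136 of the 172 P0 members and for 6 of the 29 P7 members, against 66% of the members called in cerebrum. In cerebellum, 31 of the P0 members and 13 of the P7 members were called at that age only, and 103 and 11 were called in no cerebellum library.

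Of the P0 members, Btg1, an antiproliferative factor, had the highest mean percentile (70.58), 1261 nt from the stop codon, with folds of 18.8, 20, 17.5 and 17.7. Sox4 and Sox11, transcription factors of immature neurons, had folds of 4.2, 3.45, 2.69 and 4.66 and of 3.64, 4.02, 4.69 and 4.8, the latter 6182 nt into a 3′UTR of 6957 nt. Cux2, a marker of upper cortical layers, gave 14.5, 17.9, 11.6 and 19.5, and the glutamine transporter Slc38a1 gave 13.5, 20.8, 12.9 and 15.5. None of these 5 regions was called in any cerebellum library. Sox4 also had a member 395 nt from its stop codon that all 14 libraries called. In its region 1292 nt away the calls differed by age, without a test per region and at folds of 2.69 to 4.66. The median fold of all regions in P0 cerebrum was 10.45 to 10.757.

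Among the P7 members, Gpr37l1, an astrocyte receptor, had folds of 11.6, 13, 10.4 and 16.9 in P7 cerebrum and 5.02, 5.45, 5.32 and 7.82 in P7 cerebellum, and was called in no P0 library of either tissue. Rxfp1, the relaxin receptor, was called in P7 cerebrum (10.6 to 14.2) and in 3 of 4 P7 cerebellum libraries. Hapln4, which links the matrix of perineuronal nets, was called in P7 cerebrum at 5.89 to 9.66 and in all cerebellum libraries, where P0 gave 5.55 and 8.45 and P7 gave 24.3, 23.0, 23.3 and 27.9. Sgpp2, a sphingosine phosphate phosphatase, gave 7.78 and 6.34 in P0 cerebellum, 11.9 to 19.4 in P7 cerebellum and 5.62 to 9.34 in P7 cerebrum. GGAC was present at 34.3% (27.6% to 41.7%) of the P0 members and 55.2% (37.5% to 71.6%) of the P7 members, intervals that overlap.

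Fold enrichment was compared for the 9215 regions called in all 14 libraries, of which 2109 were members. Values are log2 folds minus the median of their library, tested with limma and Benjamini-Hochberg adjustment over all 9215, and the median standard error of a member's age difference was 0.181. These members passed through presence in every library, so regions lost in a group are not among them. A fold can carry the level of the transcript as well as its methylation, because the control of each peak call is not given in the sources used here, and the share of each was not tested.

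At P7 in cerebrum 138 members (6.54%) were higher and 117 (5.55%) lower than at P0, at an adjusted p under 0.05 in limma. Over all regions the percentages were 6.34 and 4.44. The groups did not overlap for 121 and 103 of them (5.74% and 4.88% of the members), as was so for 5.39 and 3.75 percent of all regions. The median difference over all 2109 members was 0.029. Members wholly beyond 200 nt gave 65 and 77 calls, and quantile normalization gave 72 and 76. With the rank of a peak in its list in place of its fold the counts were 118 and 586. Unlike folds, ranks were not centred on the median of a library, so the 2 fits differ in more than scale. The balance of the directions thus depended on the measure, and the parts of scale, centring and list length were not tested. Without the P0 cerebrum male F1r library the counts were 82 and 63, and without the P7 cerebrum female F1r library 91 and 69.

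Tnfaip8l3, a carrier of phosphoinositides, rose most, in a region with an edge near the stop codon, with folds of 10.9, 7.46, 9.19 and 9.57 at P0 and 31.0, 38.0, 33.0 and 30.9 at P7 (log2 difference 2.07 ± 0.276 SE, limma adjusted p = 2.62e-05). Slc22a3, a transporter of organic cations that takes up monoamines, gave 9.85, 6.93, 6.68 and 8.2 at P0 and 22.3, 29.2, 21.4 and 27.6 at P7 (1.89 ± 0.234 SE, limma adjusted p = 1.29e-05). In both genes every P7 value exceeded every P0 value, and the Slc22a3 region lay wholly beyond 200 nt. By rank in the list neither passed (limma adjusted p = 0.0554 and 0.0596). Cemip, which degrades hyaluronan, gave 15.6, 14.9, 12.1 and 14.1 at P0 and 27.3, 41.7, 42.6 and 42.0 at P7 (1.64 ± 0.172 SE, limma adjusted p = 1.96e-06). The vesicle protein Sytl2 (1.71 ± 0.184 SE) and the kappa opioid receptor Oprk1 (1.63 ± 0.212 SE) rose as well, both in regions with an edge near the stop codon.

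Pou2f2, a POU transcription factor, fell most, from folds of 67.9, 75.8, 79.4 and 53.3 at P0 to 22.6, 28.7, 15.9 and 21.5 at P7, in a region 2643 nt from the stop codon (log2 difference -1.43 ± 0.183 SE, limma adjusted p = 1.8e-05). Celsr1, a planar polarity cadherin of progenitor cells, gave 56.4, 61.3, 58.2 and 45.1 at P0 and 19.7, 19.8, 17.4 and 29.8 at P7 (-1.15 ± 0.174 SE, limma adjusted p = 0.000125). The P7 values lay below all P0 values in both. The centrosome protein gene Cdk5rap2 fell in a region 5736 nt into a 3′UTR of 6202 nt (-1.16 ± 0.188 SE, limma adjusted p = 0.000265). Lrrc75b (-1.23 ± 0.192 SE) and Arhgap28 (-1.11 ± 0.246 SE) completed the 5, and by rank Arhgap28 did not pass (limma adjusted p = 0.114).

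**Figure D5:**
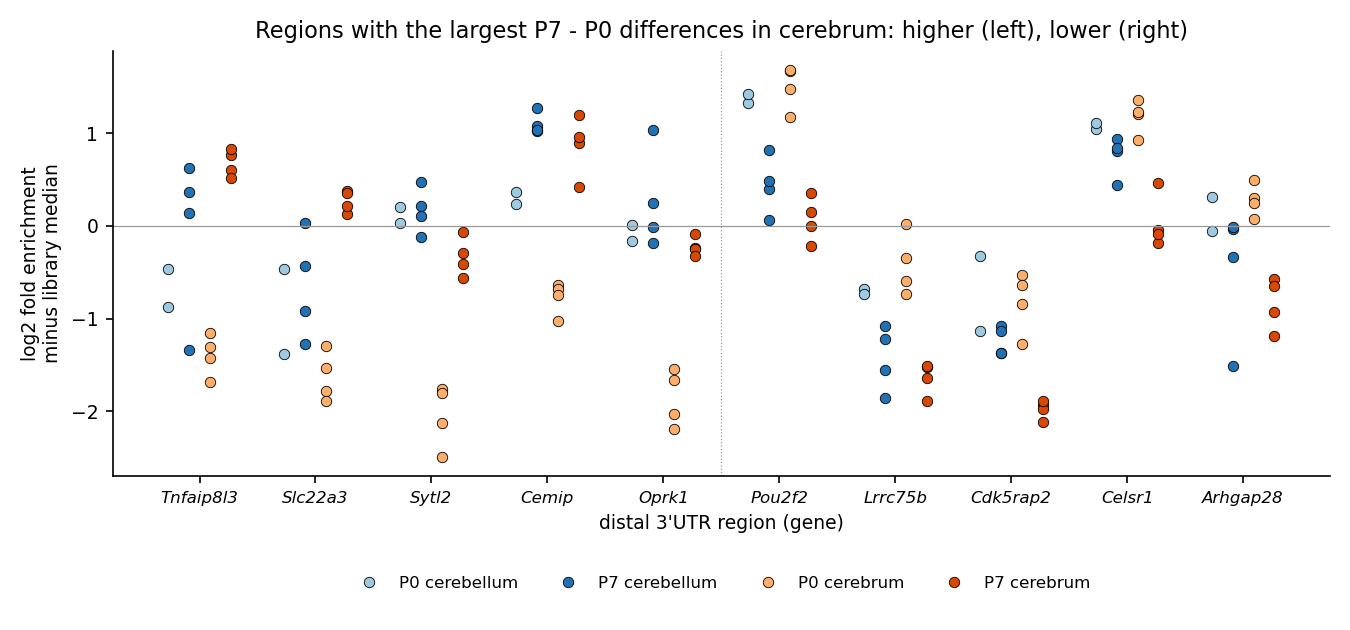
Log2 fold enrichment minus the median of the library (y axis) in each of the 14 libraries for the 5 distal 3′UTR regions that rose most and the 5 that fell most from P0 to P7 in cerebrum (x axis, gene). Each circle is a library. P0 and P7 cerebrum do not overlap in any of the 10, and the cerebellum groups are shown beside them.

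Between the tissues at P7, 631 members (29.9%) were higher in cerebrum and 466 (22.1%) lower (limma, adjusted p under 0.05). Over all regions the percentages were 28.2 and 23.7. Ntrk3 differed most, in a region 1326 nt from its stop codon, with folds of 17.1 and 22.4 in P0 cerebellum, 8.45, 9.16, 9.14 and 15.4 in P7 cerebellum, 104.0, 123.0, 93.7 and 101.0 in P0 cerebrum and 116.0, 119.0, 102.0 and 118.0 in P7 cerebrum (2.79 ± 0.185 SE, limma adjusted p = 3.16e-10). The cerebellum values lay below all cerebrum values at both ages. Zbtb20, a transcriptional repressor required for hippocampal and cortical development, was higher by 2.35 ± 0.182 SE, the nuclear import factor Kpna3 by 2.35 ± 0.208 SE, Entpd7 by 2.21 ± 0.189 SE and the RNA-binding protein Tial1 by 2.15 ± 0.336 SE. These last 4 regions reached near the stop codon.

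In the opposite direction, Itpkc, an inositol trisphosphate kinase, gave folds of 26.6 and 33.4 in P0 cerebellum, 40.8, 41.4, 39.4 and 36.2 in P7 cerebellum, 13.5, 17.1, 17.5 and 14.6 in P0 cerebrum and 10.7, 15.6, 9.26 and 9.38 in P7 cerebrum (-2.53 ± 0.17 SE, limma adjusted p = 3.31e-10). Here all cerebellum values exceeded all cerebrum values. Abcd4, a lysosomal vitamin B12 transporter (-2.635 ± 0.235 SE), and Dll4, a Notch ligand (-2.19 ± 0.179 SE), were also lower in cerebrum. Nfasc, the adhesion molecule of axon initial segments and nodes (-2.17 ± 0.194 SE), had its region 5571 nt into a 3′UTR of 5730 nt. Rflnb, a filamin regulator, was lower by -2.11 ± 0.152 SE on the log2 scale.

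In cerebellum, where P0 had 2 libraries, 10 members were higher and 16 lower at P7 (0.474% and 0.759%, limma, adjusted p under 0.05), against 0.651 and 0.803 percent of all regions. Without the P0 cerebellum male F1r library no member passed, although 289 members had an unadjusted p under 0.05 with all libraries, without the male F1i library 3 and 4 did, without the P7 cerebellum male F1r library 8 and 3, without its female F1i library 19 and 34, and without the P0 cerebrum female F1i library 6 and 9. Klf9, a factor induced by thyroid hormone, rose from folds of 20.4 and 11.9 to 38.2, 28.5, 48.2 and 41.2 (1.23 ± 0.227 SE, limma adjusted p = 0.00962), but did not pass without the P0 male F1r library (0.827, limma adjusted p = 0.219). The integrin Itga8 (1.25 ± 0.218 SE), the repressor Zbtb18 (1.22 ± 0.222 SE) and Trp73 (1.81 ± 0.339 SE) also rose. Acvr2b, an activin receptor, fell (-1.26 ± 0.226 SE), as did Entpd7, Mesd, 2610008E11Rik and Gm3526, a predicted gene of a family whose copies may share reads.

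The age effect itself differed between the tissues for 24 members, with a more positive difference in cerebrum for 20 and a more negative one for 4 (0.948% and 0.19%, limma interaction, adjusted p under 0.05), against 1.04 and 0.38 percent of all regions. With uncentred rank in place of fold the counts were 46 and 165, so this balance too depended on the measure. Trp73, a p53 relative that marks Cajal-Retzius cells in the cortex, differed most (-2.77 ± 0.437 SE, limma adjusted p = 0.00311). Its folds were 5.0 and 5.29 in P0 cerebellum, 27.7, 29.2, 8.53 and 18.6 in P7 cerebellum, 38.9, 33.6, 44.7 and 33.3 in P0 cerebrum and 13.1, 19.3, 16.8 and 17.1 in P7 cerebrum. They were thus higher at P7 than at P0 in cerebellum and lower in cerebrum. The difference from P0 to P7 in cerebellum did not pass without either P0 library there (limma adjusted p = 0.0964 and 0.102). Wnt4, a Wnt ligand, went the other way, with 21.7 and 16.6 in P0 cerebellum, 7.7, 9.75, 17.3 and 10.6 in P7 cerebellum, 6.66, 7.95, 14.2 and 10.9 in P0 cerebrum and 11.1, 17.4, 18.2 and 12.6 in P7 cerebrum (1.71 ± 0.381 SE, limma adjusted p = 0.0221). Wnt4 did not pass without either P0 cerebellum library or the P0 cerebrum male F1i library (1.504, 1.914 and 1.536, limma adjusted p = 0.154, 0.0545 and 0.0511). The number of such members was 7 and 2 without the P0 cerebellum male F1i library, 4 and 4 without the male F1r library, and 44 and 24 without the P7 cerebellum female F1i library.

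The direction of the cross left few traces. No member differed in fold between F1r and F1i (limma with pairs as blocks, 0 of 2109, 92 at an unadjusted p under 0.05, lowest adjusted p 0.799), as was the case for 0.00 percent of all regions. By presence, a member counted as directed where at least 5 of 7 pairs had it in the library of that cross only and no pair the other way. Trappc9 and Bud13 were directed to F1r, and Rasgrf1, Zkscan2 and 5730409E04Rik to F1i, which is 2 and 3 of the 3575 members (0.0559% and 0.0839%). Over all regions the percentages were 0.0485 and 0.0404. Rasgrf1, an imprinted gene expressed from the paternal allele in brain, was called in 6 of 7 F1i libraries and in 0 F1r libraries, with folds of 6.77, 5.23, 4.95, 5.02, 11.1 and 8.98. Trappc9, which lies beside imprinted genes, was called in 7 F1r libraries (5.21 to 11.1) and in 1 F1i library (4.67). Both strains were aligned to one masked genome, and a strain difference at these sites was not tested.

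To set distal and stop codon signal of the same transcript side by side, 376 distal regions in 326 genes were paired with the strongest stop codon region of their gene, with both called in all 14 libraries. Every distal region was kept whatever its strength, but only the strongest stop codon region of a gene, which favours a lower distal value. The sign of the difference is therefore not read as a result, and pairs from the same gene share a stop codon region. Medians over pairs of the distal minus stop codon log2 fold were -0.257 ± 0.014 (SD, n = 2) in P0 cerebellum, -0.298 ± 0.042 (n = 4) in P7 cerebellum, -0.387 ± 0.021 (n = 4) in P0 cerebrum and -0.462 ± 0.071 (n = 4) in P7 cerebrum. The distal fold was the higher one in 40.69, 39.1, 38.03 and 36.17 percent of the pairs, in the same order. This difference in log2 fold was added after values had been seen. From P0 to P7 in cerebrum it rose for 4 pairs and fell for 13 (1.06 and 3.46 percent of the pairs tested, limma, adjusted p under 0.05). Without the P0 cerebrum male F1r library 0 and 3 passed, and without any other cerebrum library 1 to 3 and 6 to 11. Between the tissues at P7 it was higher in cerebrum for 60 and lower for 116 (16 and 30.9 percent).

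Nsd2, a histone methyltransferase, showed the largest rise with age, from -2.13, -2.34, -2.57 and -1.97 at P0 to -1.09, -1.72, -0.9 and -1.11 at P7, for a region 5388 nt from the stop codon (1.04 ± 0.235 SE, limma adjusted p = 0.0121). Adar, an RNA editing enzyme, showed the largest fall, from -0.87, -0.56, -0.58 and -1.47 to -2.13, -2.05, -2.15 and -2.09, for a region 1119 nt away (-1.235 ± 0.229 SE, limma adjusted p = 0.00555). No P7 value of either gene overlapped the P0 values. Igf1r, the receptor of insulin-like growth factor, fell with age (-0.995 ± 0.252 SE) and was lower in cerebrum than in cerebellum (-2.22 ± 0.252 SE) at 5266 nt. Tbc1d5 (2.23 ± 0.239 SE) and Enah, an actin regulator of growth cones (1.83 ± 0.216 SE), were higher in cerebrum, and Rflnb (-2.46 ± 0.215 SE) and Nfasc (-2.19 ± 0.224 SE) lower.

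Genes that act on m6A or on the 3′UTR were looked up for their own distal regions. Of 12 genes of m6A readers, 0 had a member. Of 11 writers and erasers 3 did, with 4 members: Wtap, with 1 of its 2 members called everywhere, Rbm15, called in 8 of 8 cerebrum and 0 of 6 cerebellum libraries with folds of 23.2, 37.9, 32.6 and 33.7 at P0 and 19, 11, 10.7 and 11.5 at P7, and Virma, exclusive to P0 in cerebrum and called in 1 P0 cerebellum library. Of 21 genes of 3′ end processing 7 had members, 10 in all, and of 2 tested for fold 1 was higher in P7 cerebrum than in P7 cerebellum (Cpsf7, 0.82 ± 0.201 SE) and 1 lower (Wdr33, -0.95 ± 0.2 SE). Of 47 regulators that bind 3′UTRs 25 had 42 members, 19 of them in all libraries. Of these 19, 2 were higher and 2 lower at P7 in cerebrum, and 7 were higher and 3 lower in cerebrum than in cerebellum at P7. Over all members tested, 6.54% were higher and 5.55% lower by age in cerebrum, and over all regions 6.34% and 4.44%. Between the tissues at P7 these shares were 29.9% and 22.1% of members and 28.2% and 23.7% of all regions. Celf5, a regulator of splicing and decay, was higher by 1.49 ± 0.169 SE.

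Of 31 genes of synaptic adhesion 16 had 25 members, and of 9 tested for fold 6 were higher in P7 cerebrum than in P7 cerebellum and 0 lower (median log2 difference 0.537, against 0.081 for all members), while 0 passed for age in cerebrum. Of all members tested 29.9% were higher and 22.1% lower between the tissues, and of all regions 28.2% and 23.7%, against which the list counts here and below are to be read. Nlgn3, a neuroligin, gave folds of 47.4 and 42.4 in P0 cerebellum, 41.7 to 59.2 in P7 cerebellum, 124.0 to 169.0 in P0 cerebrum and 103.0 to 189.0 in P7 cerebrum (tissue difference 0.78 ± 0.174 SE). Of 25 genes of mRNAs found in dendrites 13 had 16 members, and of 6 tested 4 were higher in cerebrum and 0 lower (median 0.601), among them the AMPA receptor subunit Gria2 (0.65 ± 0.16 SE) and the NMDA receptor subunit Grin2b (0.55 ± 0.173 SE). Of 47 axon guidance genes 27 had 47 members, and of 22 tested 8 were higher and 7 lower, with Epha4 higher by 0.94 ± 0.16 SE at 4358 nt.

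Of 35 Wnt genes 13 had 17 members, and Dvl2, which relays the Wnt signal, was 1 of 5 tested and fell with age in cerebrum (-0.62 ± 0.158 SE). Of 31 Hedgehog and Notch genes 12 had 17 members, and of 7 tested Maml3, a Notch coactivator, fell with age (-0.77 ± 0.187 SE), with 2 higher and 2 lower between tissues. Of 35 cerebrum transcription factors 19 had 31 members, of which 4 were exclusive to P0 cerebrum (Sox4, Sox11 and 2 of Cux2) and 2 others higher in cerebrum by presence. Of 32 cerebellum genes 14 had 19 members, of which 1 each of Pax2, En2, Lhx1 and Barhl2 was called more often in cerebellum (Fisher's exact test, adjusted p = 0.0066, 0.0066, 0.0397 and 0.0483). In the same list 1 member was exclusive to P0 cerebrum. Of its 3 members tested for fold, 1 was higher and 1 lower in P7 cerebrum than in P7 cerebellum. Over all members tested, 7.92% were called more often in cerebrum and 2.07% in cerebellum, and over all regions 7.78% and 1.87%. Of all members called in cerebrum 3.3% were exclusive to P0, and of all regions called there 4.79%. Both lists were chosen with earlier results of these data known. Of 67 imprinted genes 20 had 40 members, and of 13 tested 6 were higher and 1 lower in cerebrum (29.9% and 22.1% of all members), Zim1 by 1.2 ± 0.208 SE and Peg10 by 0.8 ± 0.164 SE.

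Of 10 astrocyte genes 6 had 10 members. S100b was called in 1 of 4 P0 and 4 of 4 P7 cerebrum libraries, at 4.98 and at 20.1, 25.5, 12.8 and 21. Of 2 members tested for fold, that of Gja1, a connexin, rose with age in cerebrum (0.68 ± 0.196 SE), and that of Slc1a2 did not pass. The 2 members of Slc1a3 were not called in all libraries, so their fold was not tested. Of 11 oligodendrocyte genes 6 had 8 members, with Pdgfra and Olig1 in all libraries and the myelin gene Mbp in 2 cerebellum libraries. Of 10 microglia genes 2 had 3 members, the strongest of Cx3cr1 and of Tmem119 called in 1 and 2 libraries, and of 12 vessel and blood genes 4 had 6 members. The part of cell make-up in the age and tissue differences above was not tested.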

How the data were processed

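m6A-seq of 14 IP libraries was used (of 28 labelled samples; the inputs were not used). By the published methods, barcoded samples were pooled and put through repeated IP, reads were trimmed (fastp 0.21.0), aligned with HISAT2 2.1.0 to a strain-masked mm10 genome and deduplicated, and peaks were called per library and strand with MACS2 2.1.2. The control of each call is not given in the sources used here. The authors' fold enrichment is the ratio of IP pileup to local background at the summit. The deposited −log10 p and −log10 q come from the same calls and rank peaks inside a list. The lists hold no read totals, so absolute depth is unknown.

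Peaks (280967) were merged where they overlapped by 1 bp on a strand, each region being present in the libraries whose peaks it contained, and gene parts came from GENCODE vM21, which may differ from the authors' annotation. Library values were compared by exact permutation, presence by Fisher's exact test (scipy 1.17.1) and log2 fold of the strongest peak, centred on the library median, with limma 3.58.1 (R 4.3.3) on 4 groups or on pairs and cross, at an adjusted p of 0.05. The Fisher and limma tests of regions ran on regions of every kind, members being counted afterwards. Only these tests were tried on simulated data. There an unchanged region had the same chance of a call in every library, so differences in list length were not simulated. Regions were named by set ranks: strongest, most different per direction, and up to 4 genes per list. Members and lists were chosen with earlier results of these data known. Alternatives were other distances, list lengths, cover, scaling, ranks, and each library left out. Some regions that met the naming rule are not reported here.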

Additional observations from a re-analysis of the deposited data

Results flagged for a closer look

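The age effect on fold differed between cerebrum and cerebellum for 24 distal regions by limma's interaction term at an adjusted p under 0.05. The named regions with a more positive effect in cerebrum were Wnt4 (1.711 on the log2 scale), Sytl2 (1.661), Slc22a3 (1.618), Irak2 (1.573) and Lynx1 (1.554). Those with a more negative effect were Trp73 (-2.773), Rnf122 (-1.332), the region shared by the 3′UTRs of Ggnbp1 and Zbtb9 (Ggnbp1;Zbtb9, -1.326) and Pdgfc (-1.095). Many of these calls were lost under an alternative (limma adjusted p in parentheses). By rank, Wnt4 (0.0568), Sytl2 (0.0953), Slc22a3 (0.563), Irak2 (0.0863) and Lynx1 (0.312) did not pass, and Slc22a3 did not pass with quantile normalization (0.0755). Leaving out 1 library, Slc22a3 was lost in 6 cases (0.0526 to 0.21), Pdgfc in 10 (0.0545 to 0.277) and Wnt4 in 3 (0.0511 to 0.154). Without the P0 cerebellum male F1r library Irak2 (0.0955) and Lynx1 (0.0522) were lost, without the male F1i library Ggnbp1;Zbtb9 (0.0586), and without either Rnf122 (0.0543 and 0.0625). Trp73 kept its call under all these settings. In the Ggnbp1;Zbtb9 region the P7 cerebellum female F1i library stood apart from the other 3 of its group, at a centred log2 fold of 0.6. With 105 groups of named regions checked, chance alone marks about 1 group in 20.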

How the results depend on the processing

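The share of all regions rose from P0 to P7 in cerebrum by 0.5539 points for members over 400 nt from stop codons, by 0.1461 for members wholly beyond 200 nt and by 0.5498 with lists of one length, none past the threshold, and its sign turned against exonic regions alone (-1.397). The tissue difference of the share turned to 0.3519 for members wholly beyond 200 nt and to 0.9503 against exonic regions. With lists of one length the age difference in number was -60.0. Requiring peaks to cover most of a region, by length, gave -0.6571 percentile points and 2 cross-directed members. Fisher calls at P7 alone were 0. Members over 400 nt gave 679 tissue and 14 interaction calls, and members wholly beyond 200 nt 538 tissue, 142 cerebrum age, 16 cerebellum age and 12 interaction calls, fewer regions being tested. Quantile normalization gave 148 and 50 age calls in cerebrum and cerebellum, and ranks gave 704, 348 and, for the interaction, 211 (46 and 165 by direction). The causes were not tested. Leaving out 1 library gave 665.0 to 798.6 (number, tissue), -747.5 to -629.6 (number, age), -1.292 to -0.8103 (share, tissue), 1.461 to 1.969 (share, age), -0.7548 to -0.2044 (share, cross), -2.916 to -2.558 (percentile), 171 to 421 (presence), 223 to 271 (age-exclusive), 3 to 4 (cross-directed), 145 to 295 (fold, cerebrum age), 1003 to 1112 (fold, tissue), 0 to 53 (fold, cerebellum age), 8 to 68 (interaction), 0 (fold, cross), and within genes 3 to 17 (age) and 154 to 177 (tissue). Over 51 named results, 830 of 905 checks kept direction and side of the threshold, 75 kept direction only, and 0 turned. Replicate numbers only name libraries in accession order and pair nothing, while matched F1i-F1r pairs as a random block (consensus correlation -0.0041) gave 257 cerebrum age, 1099 tissue, 27 cerebellum age and 25 interaction calls. Settings for clear members and exonic shares were chosen after seeing the data.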
